A study of Bos taurus and Cervus elaphus with 24 samples.

Results

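Blood RNA of Holstein-Friesian (HF) and Polish Red (PR) cows was compared at peak lactation, when daily milk yield is greatest, on 8 of the 24 arrays of the series: those titled for subjects 1 to 4 of each breed in that state. The arrays were chosen by breed and state in their titles, and the comparison itself with earlier results of these data known. Holstein-Friesians are kept worldwide for their milk yield, whereas Polish Red is an old local breed of lower yield. Blood from each cow was taken into tubes that preserve RNA, and the labels call the sample peripheral blood nuclear cells. The Cy5 channel held the cow's RNA and the Cy3 channel a reference pooled from 20 cattle outside the groups, on every array. The same 4 cows of each breed also gave a sample in the dry period, the rest between lactations, and those 8 arrays serve here as a second measurement of the breed difference in the same animals. The labels used here give no age, lactation number, herd or feed, so the groups are defined by breed and state alone. Unless another fit is named, p-values rest on a spread pooled within the groups of all 24 arrays, deer and dry arrays included. That fit takes both arrays of a cow as independent.

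Each value is the log2 ratio of a cow's RNA to the reference, and each difference is the HF mean minus the PR mean (n = 4 each), so a negative difference means that PR was higher. A gene is represented by its brightest tested probe. The test was limma's moderated test with Benjamini-Hochberg adjustment over the 32948 probes tested (13408 genes), and a probe was called at an adjusted p under 0.05. On the 8 arrays the median Cy5 spot intensity ran from 117 to 255. Between 31209 and 39109 of 43653 probes exceeded background clearly in Cy5. The arrays of HF cows 2 and 3 had a spike-in correlation of 0.174 and 0.294, and those of PR cows 1 and 2 a spike-in slope of 0.56 and 0.57, against correlations of 0.995 or more and slopes of 0.895 or more on the other 4. The HF arrays lay on slides F, G, H and I and the PR arrays on slides A, B and C, and the scans of the breeds were on different days. At lactation breed and slide therefore cannot be told apart. The dry arrays lay on the same slides by breed, except that of PR cow 2 on slide I, so this limit largely holds there too. Among the 16 cattle arrays, the dry array of PR cow 1 was far brighter than the rest (median Cy5 intensity 2038), so dry values are given with and without it where this matters. Pairs of arrays of the same breed correlated across probes with a median r of 0.24 in HF (6 pairs) and 0.36 in PR (6 pairs), and pairs of different breed with a median of 0.12 (16 pairs), over values that share the reference and the probes.

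Blood at this stage carries RNA of neutrophils, monocytes, lymphocytes, platelets and immature red cells. Early milk production draws on stored fat, and blood cells meet raised fatty acids and changing insulin, growth hormone and glucocorticoid levels, while neutrophil function and interferon responses are known to vary with the metabolic state and infection history of a cow. Genes that differ between breeds can also carry inherited differences, which do not depend on the state in which blood is drawn. The defining markers of leukocytes (PTPRC, CD3E, CD79A, CD14 and CSF3R), of red cells (HBB and ALAS2) and of platelets (PPBP and PF4) were above background on 8 of 8 arrays. Between breeds CD14 differed by 0.64, CSF3R by 0.39, PTPRC by -0.45, CD3E by -0.225 and CD79A by -0.305. The red cell markers lay on opposite sides, HBB at 0.73 and ALAS2 at -0.395. PPBP differed by -0.67 and PF4 by -0.58. The limma adjusted p-values of these markers ran from 0.232 to 0.852. Among genes of other tissues, the albumin gene ALB was above background on 3 of 8 arrays and the keratin KRT5 on 7, but the keratin KRT14 and CSN2, which encodes the milk protein beta-casein, were above background on all 8. CSN2 was lower in HF (-0.29 ± 0.11 against 0.16 ± 0.17, SD, n = 4 each, a difference of -0.44 with SE 0.15, limma adjusted p = 0.175). With bulk RNA, fewer cells of a type and less RNA per cell cannot be told apart.

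No probe was called: 0% of 32948 probes reached an adjusted p under 0.05, and the lowest adjusted p was 0.0516. Without adjustment, 4693 probes had p under 0.05, 2345 higher in HF and 2348 higher in PR. By gene these were 6.5% higher in HF and 7.83% higher in PR, and the 4 HF and 4 PR values did not overlap in 6.65% of genes with HF higher and 5.66% with PR higher. At an adjusted p under 0.1 there were 228 probes, which stood for 47 named genes higher in HF and 60 higher in PR as their brightest probe. The median difference over all genes was -0.0015 and the median size of a difference 0.13, so most genes differed little. The count of calls depended on which arrays were in the fit. The 8 lactation arrays alone gave 154 probes higher in HF and 95 higher in PR, and leaving PR dry replicate 1 out of the 24 gave 243 and 188. Without PR lactation replicate 4 there were 9 and 8, without HF lactation replicate 4 there were 0 and 1, and the 16 cattle arrays alone gave 0. Of the 249 probes called with 8 arrays, 142 were among the 431 called without PR dry replicate 1. The genes described next are ranked by p in limma and did not pass the threshold over 24 arrays.

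**Figure D1:**
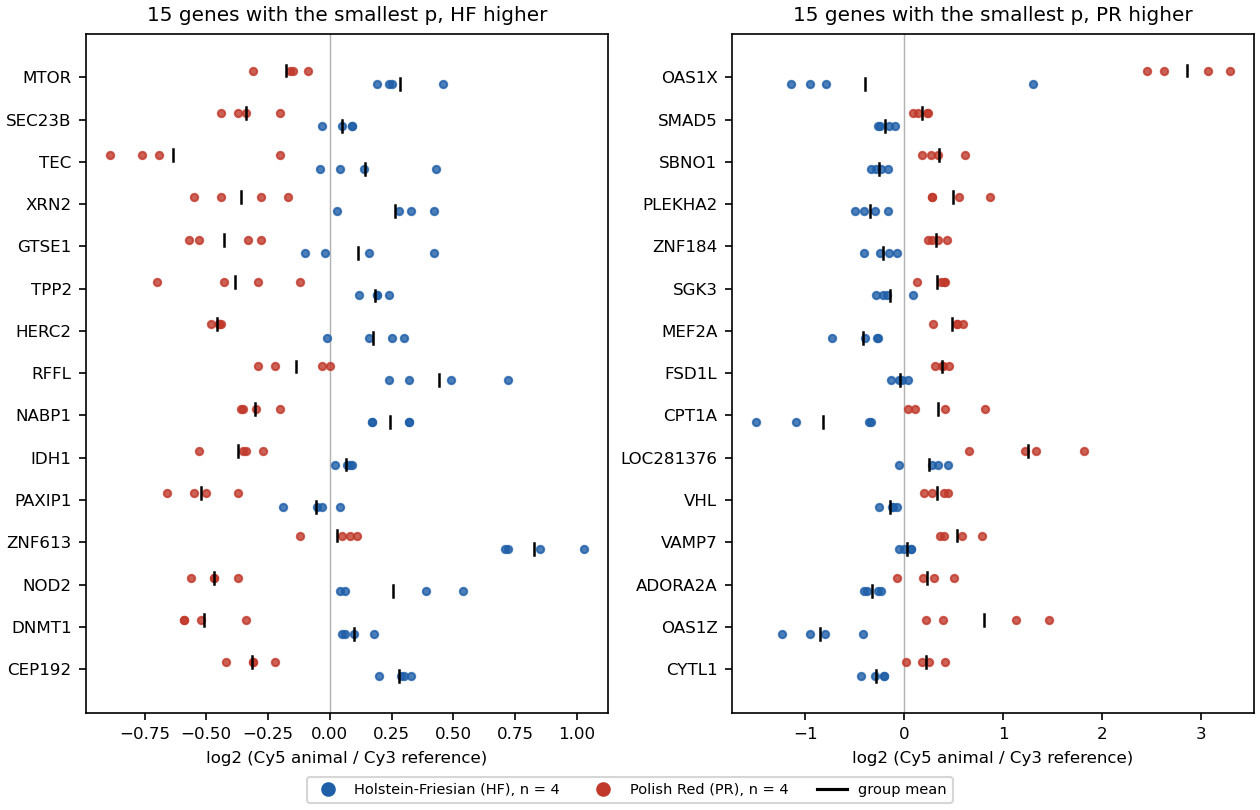
Log2 ratio of each cow's RNA to the reference at peak lactation (x axis) for the 15 genes with the smallest p in each direction (y axis). Blue points are 4 HF cows, red points 4 PR cows and black bars group means. In all 30 genes the points of the breeds do not overlap, which the ranking by p favours, and OAS1X has the widest gap between means, with HF cow 4 nearest to the PR cows.

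The largest difference between the breeds was in OAS1X, of the oligoadenylate synthetase family. These interferon-induced enzymes sense double-stranded RNA and make a short messenger that activates an RNA-degrading enzyme, and cattle carry several OAS1 copies side by side. The array holds 4 probes for 3 of these copies, all on the minus strand of chromosome 17 in the UMD 3.1 assembly, per the probe annotation in the files. Their first 30 of 60 bases are shown because the breed difference was largest at 2 neighbouring probes and smaller at the outer 2, and no pair of the whole probes shares a run of more than 6 bases.
OAS1Y at chr17:63638323-63638382: atcccagccttgactttcttctgtgaacct
OAS1Z at chr17:63654528-63654587: aattatacctgtgtctgccccagaatgaat
OAS1X at chr17:63654733-63654792: ttagatactggctgagctattcatgctgta
OAS1Z at chr17:63670269-63670328: tgattctcattgtaatacattgagacatgg
The first OAS1Z probe starts 205 bases from the OAS1X probe, and the second OAS1Z probe starts 15536 bases from it. The array design names the first by an OAS1Z accession although it lies next to OAS1X, so which copy it reports is uncertain.

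OAS1X stood at -1.14, -0.95, -0.79 and 1.3 in HF cows 1 to 4 and at 3.29, 2.45, 3.07 and 2.62 in PR cows 1 to 4. All PR values were above all HF values, and HF cow 4 lay between the other HF cows and the PR cows. The difference was -3.25 (SE 0.50, adjusted p = 0.0516), or 9.53-fold between the measured signals. In HF the Cy5 signal was well above background on 1 of 4 arrays, that of cow 4, and in PR on 4 of 4, so the HF values of cows 1 to 3 are upper limits and the fold is no exact measure. It was -6.32 with the processed signals of Feature Extraction and -1.65 with slide as a fixed block over the 16 cattle arrays. Only slide I held arrays of both breeds, so the latter value links the breeds through HF cow 4 and PR cow 2. The dry-period arrays again placed HF cow 4 between the other HF cows and the PR cows. There HF cows 1 to 4 stood at -1.23, -1.21, -1.13 and 1.02 and PR cows 1 to 4 at 1.38, 2.44, 3.22 and 2.47, a difference of -3.02 (SE 0.50, adjusted p = 0.0151). Without PR dry replicate 1 it was -3.35 (adjusted p = 0.0163). Again only cow 4 of the HF group was above background, and none of the 8 deer arrays was. OAS1X was the 1 probe called at lactation when the animal was a random block (adjusted p = 0.0324).

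The OAS1Z probe beside it stood at -0.95, -0.80, -1.24 and -0.42 in HF and at 1.46, 0.22, 1.13 and 0.39 in PR. The breeds did not overlap, and cow 4 was again the highest in HF. The difference was -1.65 (SE 0.35, adjusted p = 0.0805), or 3.14-fold, and -1.59 (SE 0.35, adjusted p = 0.0287) in the dry period, where it was not called without PR dry replicate 1 (-1.62, adjusted p = 0.0552). With slide as a fixed block the lactation difference was -0.56. The distant OAS1Z probe differed by -0.80 (SE 0.38, adjusted p = 0.346), with HF from -1.51 to -0.34 and PR from -0.61 to 1.1, so the breeds overlapped. OAS1Y had -0.76 (SE 0.48, adjusted p = 0.49) and its neighbour OAS2 -0.20 (SE 0.22, adjusted p = 0.751), both with overlapping breeds. A probe with no gene name between OAS1Y and OAS1Z, at chr17:63650117-63650176, had -0.88 (SE 0.46, adjusted p = 0.391).

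**Figure D2:**
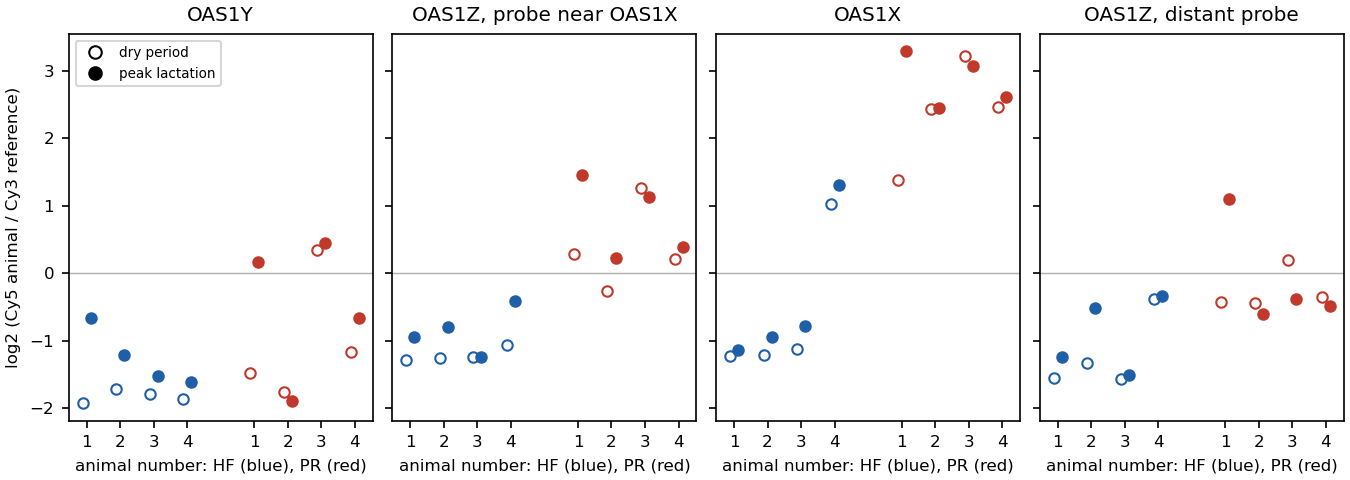
Log2 ratio to the reference (y axis) of the 4 OAS1 probes in each cow (x axis), with HF in blue, PR in red, open points for the dry period and filled points for peak lactation. In OAS1X the 2 states of a cow lie close together except in PR cow 1 (1.38 and 3.29), with HF cows 1 to 3 under -0.7, HF cow 4 at 1.02 and 1.3, and PR cows between 1.38 and 3.29.

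The interferon-stimulated genes as a list, OAS1X and OAS1Z included, had no shift towards PR of this size. Of 56 tested, 28 were higher in HF and 28 in PR. The median was -0.0068 (from -0.075 to 0.11 with 1 array left out). Those at an unadjusted p under 0.05 were 1 higher in HF and 3 higher in PR, beside 6.5% and 7.83% of all genes. EIF2AK2, the kinase that halts translation on double-stranded RNA, had -0.54 (SE 0.21, adjusted p = 0.255), with HF up to -0.05 and PR from -0.04. STAT2, which carries the interferon signal to the nucleus, had 0.83 (SE 0.23, adjusted p = 0.115). ISG15, a ubiquitin-like protein, ran from -1.29 to -0.35 in HF and from -1.61 to 0.89 in PR, and MX1, a GTPase that blocks viruses, differed by -0.44 (SE 0.44, adjusted p = 0.712).

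Of the 30 genes plotted, CPT1A was the 1 whose dry-period difference had the opposite sign. Among the 1917 genes tested in both states with an unadjusted p under 0.05 at lactation, 94.2% had the same sign in both. CPT1A, which controls the entry of long-chain fatty acids into mitochondria, stood at -0.36, -0.34, -1.5 and -1.09 in HF cows 1 to 4 and at 0.11, 0.04, 0.41 and 0.82 in PR cows. The breeds did not overlap and PR was 2.24-fold higher, a difference of -1.17 (SE 0.24, adjusted p = 0.0696) on a probe at chr29:46824212-46824271. With each channel normalized alone, that probe differed by -0.87 in Cy5 and by 0.30 in Cy3. A second, dimmer CPT1A probe had -0.12 (SE 0.11, adjusted p = 0.692). In the dry period CPT1A differed by 0.22 (SE 0.24, adjusted p = 0.643), with HF at -0.64, -0.64, -0.66 and -0.98 and PR at -1.03, -1.3, -0.64 and -0.85. PDK4, which inhibits pyruvate dehydrogenase and so spares glucose when fat is burnt, stood at -0.97, -0.88, -1.63 and -1.29 in HF and at -0.40, -0.92, 0.22 and -0.45 in PR at lactation. PR cow 2 overlapped with HF, and the difference was -0.80 (SE 0.24, adjusted p = 0.142), against 0.44 (SE 0.24, adjusted p = 0.308) in the dry period. All 8 tested PDK4 probes were lower in HF at lactation, from -0.80 to -0.15. The test of the lactation difference against the dry difference gave -1.39 (SE 0.34) for CPT1A and -1.24 (SE 0.34) for PDK4, and neither passed (adjusted p = 1 each). Over all probes of that test 0 were called and 969 had an unadjusted p under 0.05. SLC25A20, the carnitine carrier beside CPT1A in the same path, had -0.33 (SE 0.15, adjusted p = 0.319) at lactation and 0.57 (adjusted p = 0.0439) in the dry period. The muscle form CPT1B had -0.45 (SE 0.19) and the acyl-CoA synthetase ACSL5 0.53 (SE 0.19). Of 43 fatty acid oxidation and PPAR target genes, 24 were higher in HF and 19 in PR, with a median of 0.035. Of them 3 and 4 had an unadjusted p under 0.05, beside 6.5% and 7.83% of all genes.

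**Figure D3:**
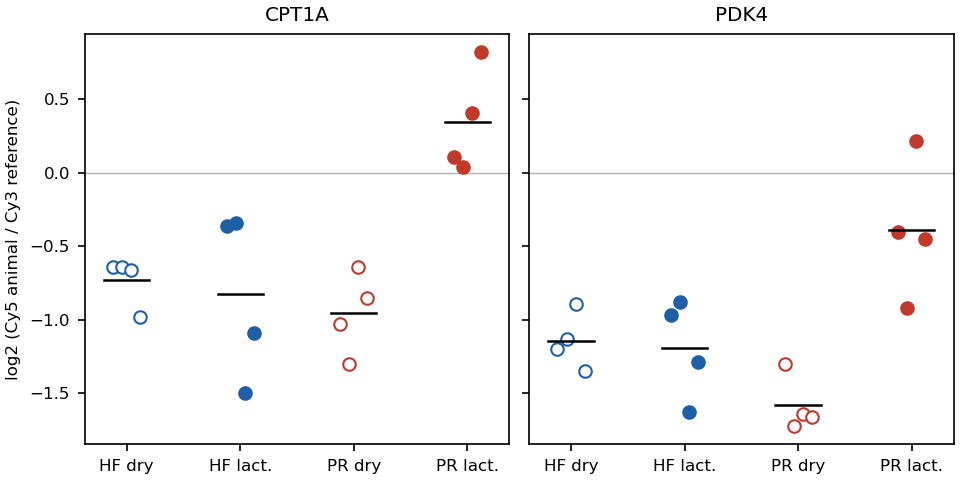
Log2 ratio to the reference (y axis) of CPT1A and PDK4 in HF (blue) and PR (red) cows in the dry period (open points) and at peak lactation (filled points), with group means as black bars. PR cows at lactation hold the highest mean of the 4 groups in both genes.

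The genes with the smallest p and higher values in PR also included LOC281376, listed by its synonym PAI2, a serine protease inhibitor. It stood at 0.44, 0.28, -0.05 and 0.34 in HF and at 1.81, 1.33, 0.65 and 1.22 in PR, a 2-fold difference (-1.0, SE 0.20, adjusted p = 0.0696). Its second probe had -0.45 (SE 0.12, adjusted p = 0.106). MEF2A, a transcription factor of muscle and immune cells, had -0.91 (SE 0.18), and its 3 probes were all lower in HF. PLEKHA2, an adaptor that binds membrane lipids, had -0.84 (SE 0.17), with HF from -0.50 to -0.16 and PR from 0.28 to 0.87. SMAD5, which carries bone morphogenetic protein signals, had the second smallest p at -0.36 (SE 0.064, adjusted p = 0.0632). VHL, which marks hypoxia-inducible factors for destruction, had -0.47, ADORA2A, an adenosine receptor that dampens inflammation, -0.55, and SGK3, a kinase downstream of phosphoinositide signals, -0.48. VAMP7, a protein of vesicle fusion, had -0.51, the cytokine-like CYTL1 -0.50 and SBNO1, a helicase-like regulator of transcription, -0.60. The zinc finger gene ZNF184 had -0.54 and FSD1L -0.42. Of the 11 of these 15 genes with several tested probes, 9 had all probes lower in HF.

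Genes with the smallest p and higher values in HF differed 1.31-fold to 1.74-fold. ZNF613, a zinc finger gene, stood at 0.72, 1.03, 0.85 and 0.71 in HF and at -0.12, 0.08, 0.11 and 0.05 in PR, the largest of the 15 at 0.80 (SE 0.17, adjusted p = 0.0805). TEC, a kinase of lymphocyte and myeloid signalling, had 0.78 (SE 0.15, adjusted p = 0.0632), with HF from -0.04 to 0.43 and PR from -0.89 to -0.20, and both of its probes were higher in HF. NOD2, the sensor of bacterial muramyl dipeptide in the cytosol, stood at 0.06, 0.39, 0.54 and 0.04 in HF and at -0.56, -0.37, -0.47 and -0.47 in PR. Its difference was 0.73 (SE 0.16, adjusted p = 0.0805) at lactation and 0.25 (SE 0.16, adjusted p = 0.368) in the dry period. MTOR, the kinase that matches growth to nutrients, stood at 0.46, 0.25, 0.24 and 0.19 in HF and at -0.31, -0.09, -0.16 and -0.15 in PR, and differed by 0.47 (SE 0.089, adjusted p = 0.0632). With each channel normalized alone, MTOR differed by 0.24 in Cy5 and by -0.20 in Cy3, the same pool on every array. SEC23B, a coat protein of vesicles leaving the endoplasmic reticulum, had 0.39 for the ratio, 0.14 for Cy5 and -0.22 for Cy3. What the Cy3 difference adds to these ratios was not tested. IDH1, a cytosolic enzyme that supplies NADPH, had 0.44 (SE 0.094) at lactation and 0.044 in the dry period.

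The maintenance DNA methyltransferase DNMT1 had 0.61 (SE 0.13), and its 4 probes show how far a value can depend on the probe. The 3 that lie within chr7:15913558-15913790 had 0.61, 0.49 and 0.29, whereas the fourth, at chr7:15927422-15927480, had -0.30 (SE 0.12). XRN2, a nuclear RNA exonuclease, had 0.63 (SE 0.12) with 4 of 5 probes higher in HF, and HERC2, a ubiquitin ligase of DNA repair, 0.63 (SE 0.13) with 4 of 6. The others were RFFL, a ubiquitin ligase, at 0.58, TPP2, a large peptidase, at 0.57, CEP192, of the centrosome, at 0.60, and NABP1, which binds single-stranded DNA, at 0.55. GTSE1, of the mitotic spindle, had 0.54 and PAXIP1, of DNA damage signalling, 0.46. Of the 10 of these 15 genes with several tested probes, 4 had all probes higher in HF. With slide as a fixed block over the 16 cattle arrays, 14 of 15 genes higher in HF kept their sign (all but CEP192, at -0.11). So did 15 of 15 higher in PR, but 12 and 12 of these genes were smaller by over 1.5 times. That fit links the breeds through slide I alone. Over all 7704 genes with several tested probes, all probes had the same sign in 48.9%, and in 54.6% of the 1259 whose brightest probe had an unadjusted p under 0.05.

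The dry-period arrays, which come from the same cows, gave breed differences like those at lactation. Over 13204 genes tested in both states the differences correlated with r = 0.63 across genes, or 0.69 without PR dry replicate 1, and had the same sign in 70.8%. For the 1917 genes with an unadjusted p under 0.05 at lactation the sign was the same in 94.2%. Genes are not independent replicates, the animals are the same, and the arrays of each HF cow in both states shared a slide. Apart from slide I, the breeds lay on different slides in the dry period too, so like differences can also come from the slides. Of the 15 genes higher in HF at lactation 15 were also higher in the dry period and 10 were called there. Of the 15 higher in PR 14 were, with CPT1A the exception, and 8 were called, against 3.44% of 13204 genes called in the dry period. Both tests use the same spread of a probe, so ranking by a small p at lactation also favours calls in the dry period. Without PR dry replicate 1 the dry calls among these genes were 5 and 3, with the same 15 and 14 signs, and the dry probes called went from 764 higher in HF and 98 higher in PR to 76 and 39. Slide I held dry arrays of both breeds, those of HF cow 4 and PR cow 2. Within that slide, the difference had the lactation sign in 13 of 15 and 12 of 15 genes, with OAS1X at -1.42 and LOC281376 at -1.26 but PLEKHA2 at 0.05 and IDH1 at -0.13. This sets a single array of each breed side by side, and the same share over all genes was not counted. These counts therefore cannot be judged against a background.

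**Figure D4:**
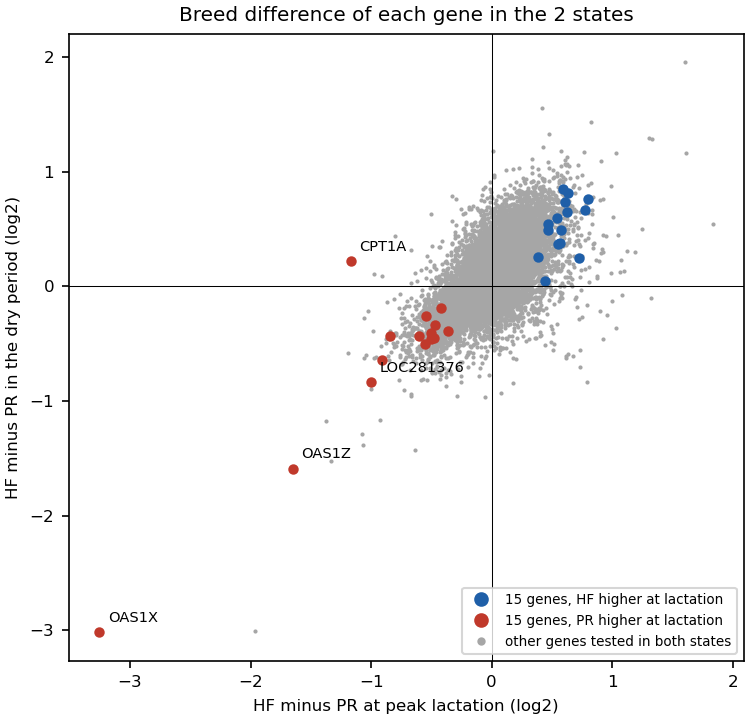
HF minus PR at peak lactation (x axis) against HF minus PR in the dry period (y axis), both on the log2 scale, for 13204 genes tested in both states. The 15 genes higher in HF (blue) and 14 of the 15 higher in PR (red) keep their sign, CPT1A lies above 0 on the y axis, and OAS1X lies far from all other named points.

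Gene lists were described by the number of members on each side and by the median difference, beside a median of -0.0015 over all genes. No member of any list was called, and 22 of 33 lists had a median above 0. Neutrophil and granule genes had the highest median, 0.41, with 28 of 37 members higher in HF, but the value rested on HF cow 3. The list mean was -0.36, 0.07, 1.04 and -0.37 in HF cows 1 to 4 and 0.03, -0.19, -0.40 and -0.35 in PR cows. Apart from cow 3 the breeds were alike in range, and without HF lactation replicate 3 the median was -0.053, with 18 of 37 higher. Without HF cows 2 and 3 it was -0.16, and in the dry period it was -0.11. MMP9, the gelatinase of neutrophil granules, had 0.14, 1.17, 1.91 and -0.07 in HF and 0.49, 0.27, -0.67 and -0.53 in PR. TCN1, the vitamin B12 carrier of secondary granules and no member of the list, had -0.19, 1.41, 1.24 and -0.05 against -0.34, -0.55, -1.09 and -0.89, so HF cows 2 and 3 were high in both. ITGB2, the beta-2 integrin subunit of all leukocytes, differed more evenly: 0.01, 0.21, -0.08 and 0.02 in HF against -0.39, -0.36, -0.66 and -0.48 in PR (0.51, SE 0.12, adjusted p = 0.095). Of its 6 probes 4 had 0.45 to 0.51 and the other two -0.08 and -0.015. ELANE, neutrophil elastase, was lower in HF (-0.65, SE 0.20, adjusted p = 0.158), with PR cow 1 at 1.47 and a difference of -0.36 without it. The acute phase and antimicrobial peptide list names 16 of the same genes, and its mean followed the same cow, with a value of 1.07 in HF cow 3 and from -0.30 to -0.04 on the other 7 arrays.

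Immediate early genes, which respond to stimuli within minutes, had 29 of 32 members higher in HF and a median of 0.35. At an unadjusted p under 0.05, 11 were higher in HF and 2 higher in PR, beside 6.5% and 7.83% of all genes. The list mean was 0.91 in HF cow 3 and from -0.02 to 0.17 in the other HF cows, against -0.20 to 0.03 in PR. FOS, a subunit of the AP-1 transcription factor, was at 5.77 in HF cow 3 and between -0.57 and 0.25 on the other 7 arrays. DUSP1, a phosphatase that switches off MAP kinases, was at -0.30, 1.12, 2.78 and 0.48 in HF and from -0.53 to 0.00 in PR. JUN, the partner of FOS, had 0.95 (SE 0.29, adjusted p = 0.15), with 1.82 in HF cow 3 and a difference of 0.53 without it. Without HF lactation replicate 3 the median was 0.16 and 26 of 32 were higher in HF, with 3 higher in HF and 2 higher in PR at that p. FOS then had 0.41 (adjusted p = 0.538) and DUSP1 0.66. JUND, a relative of JUN, went the other way in every cow, with -0.12 to 0.06 in HF against 0.42 to 0.66 in PR (-0.62, SE 0.19, adjusted p = 0.139). Glucocorticoid response genes, among them DUSP1 of this list, had a median of 0.19, and 0.078 without HF lactation replicate 2. DDIT4, a brake on mTOR signalling in stress, stood at 0.22, 0.97, 0.75 and 0.42 in HF and at -1.09, -0.10, -0.57 and -0.38 in PR (1.12, SE 0.38, adjusted p = 0.186).

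MHC class I and peptide loading genes, which display peptides to cytotoxic T cells, had 22 of 28 members higher in HF and a median of 0.24. The list means of the breeds did not overlap, with 0.02 to 0.13 in HF against -0.47 to -0.07 in PR. The median was 0.23 without HF lactation replicate 3, and 0.27 in the dry period or 0.14 without PR dry replicate 1. TAPBP, which holds class I molecules at the peptide transporter, had 0.42 (SE 0.16, adjusted p = 0.226) with HF from 0.01 to 0.18 and PR from -0.58 to -0.13. The transporter subunit TAP1 had 0.49 (SE 0.21), the chaperone CALR 0.34 (SE 0.14) and the class I gene BOLA 0.59 (SE 0.26, adjusted p = 0.302). With each channel normalized alone, TAPBP differed by 0.18 in Cy5 and by -0.22 in Cy3, and CALR by 0.083 and -0.26. What the Cy3 difference adds to these 2 ratios was not tested. Of the 6 CALR probes only 3 were higher in HF, and the lowest had -0.32. Class I genes are near-identical copies that differ between cattle haplotypes, so a probe's value can depend on sequence as well as on level. Class II and antigen presentation genes had 14 of 28 members higher in HF and a median of 0.006. Means of 2 other lists also did not overlap, glucocorticoid response genes (0.02 to 0.27 in HF, -0.10 to -0.02 in PR) and circadian clock genes (0.01 to 0.06 against -0.05 to 0). These were 3 of 33 lists with HF higher and 0 with PR higher. Among single genes the values did not overlap in 6.65% with HF higher and 5.66% with PR higher. In the clock list ARNTL, which drives the daily rhythm, had 0.51 (SE 0.13, adjusted p = 0.103). NR1D2, a repressor of the same loop, had -0.41 (SE 0.15, adjusted p = 0.233), and -0.18 in Cy5 alone.

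Cell cycle and replication genes had 35 of 47 members higher in HF and a median of 0.11. At an unadjusted p under 0.05, 12 were higher in HF and 0 higher in PR, beside 6.5% and 7.83% of all genes. ORC1, which marks replication origins, stood at -0.05, 0.09, 0.19 and -0.14 in HF and at -0.37, -0.40, -0.40 and -0.39 in PR (0.41, SE 0.093, adjusted p = 0.0856). TPX2, a spindle assembly factor, had 0.40 (SE 0.096, adjusted p = 0.095), cyclin A2 (CCNA2) 0.40 and the replication clamp PCNA 0.40, the latter with 0.68 in the dry period. HF cow 3 held the highest list mean, 0.25, and without it 3 members had an unadjusted p under 0.05 and the median was 0.076. Cholesterol and sterol genes had 26 of 34 higher in HF and a median of 0.15, which was 0.093 without HF lactation replicate 3 and 0.25 without replicate 2. The synthesis enzymes SQLE (0.47, SE 0.21) and LSS (0.43, SE 0.18) were high in HF cows 1, 3 and 4 and low in cow 2. ABCG1, which exports cholesterol, had -0.23 (SE 0.071, adjusted p = 0.146), and -0.14 in Cy5 alone.

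Heat shock and chaperone genes lay on both sides. HSPA5 had 0.65 (SE 0.21), HSP90B1 0.48 (SE 0.21) and DNAJB9 0.41 (SE 0.14), chaperones of the endoplasmic reticulum, and in each the breeds did not overlap, with adjusted p-values of 0.166, 0.296 and 0.19. HSPA13, a chaperone found in microsomes, had -0.53 (SE 0.13, adjusted p = 0.095), and -0.31 in Cy5 alone. The whole list had 25 of 37 higher in HF and a median of 0.11. Of 42 antioxidant genes 23 were higher in HF (median 0.019). Those at an unadjusted p under 0.05 were 5 higher in HF and 1 higher in PR, beside 6.5% and 7.83% of all genes. Haem oxygenase HMOX1 had 0.57 (SE 0.20), the mitochondrial peroxiredoxin PRDX3 0.53 (SE 0.17) and GCLM, a subunit of the enzyme that starts glutathione synthesis, 0.36 (SE 0.11).

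Growth hormone and prolactin act on blood cells through STAT5, and of the 32 genes of that axis 20 were higher in HF, with a median of 0.035. Among them 4 were higher in HF and 5 higher in PR at an unadjusted p under 0.05, beside 6.5% and 7.83% of all genes. CISH, a STAT5 target that feeds back on these receptors, stood at 0.84, 0.16, 0.50 and 0.04 in HF and at -0.22, -0.28, -0.50 and -0.33 in PR (0.72, SE 0.20, adjusted p = 0.12). SOCS1, another feedback inhibitor, had 0.66 (SE 0.26, adjusted p = 0.247), with HF from -0.16 to 0.73 and PR from -0.46 to -0.32. The growth factor IGF2 was on the other side (-0.48, SE 0.22, adjusted p = 0.335), with HF from -0.45 to -0.21 and PR at -0.64, 0.64, 0.50 and 0.26. In the milk protein and mammary list 9 of 19 were higher in HF, with a median of -0.037. At an unadjusted p under 0.05, 3 were higher in HF and 2 higher in PR, CSN2 among the latter, beside 6.5% and 7.83% of all genes. XDH, xanthine dehydrogenase, had -0.35, 0.09, 0.21 and -0.17 in HF and -0.82, -1.36, -0.88 and -0.38 in PR (0.80, SE 0.19, adjusted p = 0.095). Lipoprotein lipase (LPL) had 0.80 (SE 0.30, adjusted p = 0.222) and fatty acid synthase (FASN) 0.61 (SE 0.27, adjusted p = 0.304).

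Lists of other cells had medians nearer to 0, and most of these moved by over 1.5 times when 1 array was left out. The monocyte list had 0.14, with 17 of 27 higher in HF, and 0.056 without HF lactation replicate 2. In it the matrix protein VCAN had -1.0 (SE 0.29, adjusted p = 0.122), with HF at -1.18, -0.07, -0.88 and -0.62 and PR at 0.82, -0.12, 0.15 and 0.39. T cell genes had 0.021 (17 of 32 higher), with IL7R, the receptor of a T cell survival factor, at -0.68 (SE 0.29). B cell genes had -0.00088 (13 of 26), with CR2, the complement receptor of B cells, at 0.40, -0.01, -0.06 and 0.24 in HF and -0.48, -0.54, -0.60 and -0.30 in PR (0.62, SE 0.14, adjusted p = 0.0884). PRDM1, which drives plasma cells, had 0.43 (SE 0.16). NK and cytotoxic genes had -0.083 (9 of 28 higher), with 0.025 without PR lactation replicate 3, 0.0012 without HF lactation replicate 1 and -0.19 without HF lactation replicate 2, and with the granule protease GZMB from -1.63 to 0.61 in HF and from -0.38 to 1.23 in PR. The T cell median changed sign without HF lactation replicate 1 (-0.039), HF replicate 2 (-0.014) or PR replicate 4 (-0.017), and the B cell median ranged from -0.024 to 0.094. Gamma delta T cell genes had -0.084 (2 of 10 higher), platelet genes -0.13 (7 of 21) and eosinophil, basophil and mast cell genes -0.14 (3 of 13). With 1 array left out these ranged from -0.22 (without PR replicate 1) to -0.022 (PR 2), from -0.43 (HF 1) to -0.033 (PR 1) and from -0.39 (HF 4) to -0.047 (HF 2). The eosinophil chemokine receptor CCR3 had -0.96 (SE 0.33, adjusted p = 0.191), with HF at -0.13, -0.89, -1.23 and 0.39, and without HF cows 2 and 3 and PR cows 1 and 2 it had 0.01. Erythroid genes had -0.084 (12 of 33 higher), or 0.061 without PR lactation replicate 2. In that list the embryonic globin HBZ had -0.79 (SE 0.20, adjusted p = 0.103) with non-overlapping breeds, and -0.04 with slide as a fixed block. CAT, also listed there, went the other way at 0.38 (SE 0.13, adjusted p = 0.19), with overlapping breeds.

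In the list of cytokines, chemokines and NF-kappaB genes 43 of 61 were higher in HF (median 0.081). TNFSF9, the ligand of a T cell costimulator, had 0.66, 0.06, 1.54 and 0.09 in HF and -0.02, -0.30, -0.41 and -0.37 in PR (0.86, SE 0.24, adjusted p = 0.112), or 0.55 without HF cow 3. CXCL8, the main chemokine that draws neutrophils, was lower in HF in both states, -1.37 (SE 0.54, adjusted p = 0.252) at lactation and -1.17 in the dry period, with HF at 0.01, -1.84, -0.60 and -0.13 and PR at 1.53, 1.44, -0.43 and 0.40. Of 42 pattern recognition genes 25 were higher in HF (median 0.11), with TLR7, a sensor of single-stranded RNA, at -0.32 (SE 0.12). In the complement and Fc receptor list, with 19 of 33 higher and a median of 0.055, FCGR2B, the inhibitory antibody receptor, had 0.73 (SE 0.20, adjusted p = 0.112). Leukocyte adhesion and integrin genes had a median of -0.02 (15 of 32 higher), vitamin D and calcium genes -0.031 (10 of 24) and the GIMAP genes, small GTPases of lymphocytes, 0.025 (8 of 12).

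Cytosolic ribosomal protein genes leaned to PR, with 60 of 79 lower in HF and a median of -0.075. In this list 9 members were lower and 0 higher in HF at an unadjusted p under 0.05, beside 7.83% and 6.5% of all genes. RPL29 had -0.23 (SE 0.083, adjusted p = 0.203). In the dry period the median of this list was 0.36, or 0.19 without PR dry replicate 1, and without HF lactation replicate 3 the lactation median was -0.13 with 6 members lower and 1 higher at that p, and without replicate 4 it was -0.035. Under median centring in place of loess it changed sign to 0.13, where the median of all genes was 0.08. Of 79 mitochondrial respiratory chain genes 47 were higher in HF at lactation, with a median of 0.036, or -0.0099 without HF lactation replicate 3, against 0.43 in the dry period and 0.18 there without PR dry replicate 1. Of 35 glycolysis genes 24 were higher in HF (median 0.091), with the enolase ENO1 at 0.39 (SE 0.10, adjusted p = 0.103). Of 34 proteasome genes 18 were higher in HF (median 0.057), with the regulatory subunits PSMD8 at -0.67 (SE 0.18, adjusted p = 0.109) and PSMD10 at 0.44 (SE 0.13, adjusted p = 0.122, Cy5 alone 0.21) on opposite sides. With slide as a fixed block over the 16 cattle arrays, the breed difference rests on slide I, the only slide with arrays of both breeds. The medians were then 0.028 for neutrophil, 0.05 for immediate early and 0.16 for MHC class I genes. They were -0.43 for ribosomal and -0.44 for mitochondrial genes, beside -0.065 over all genes.

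**Figure D5:**
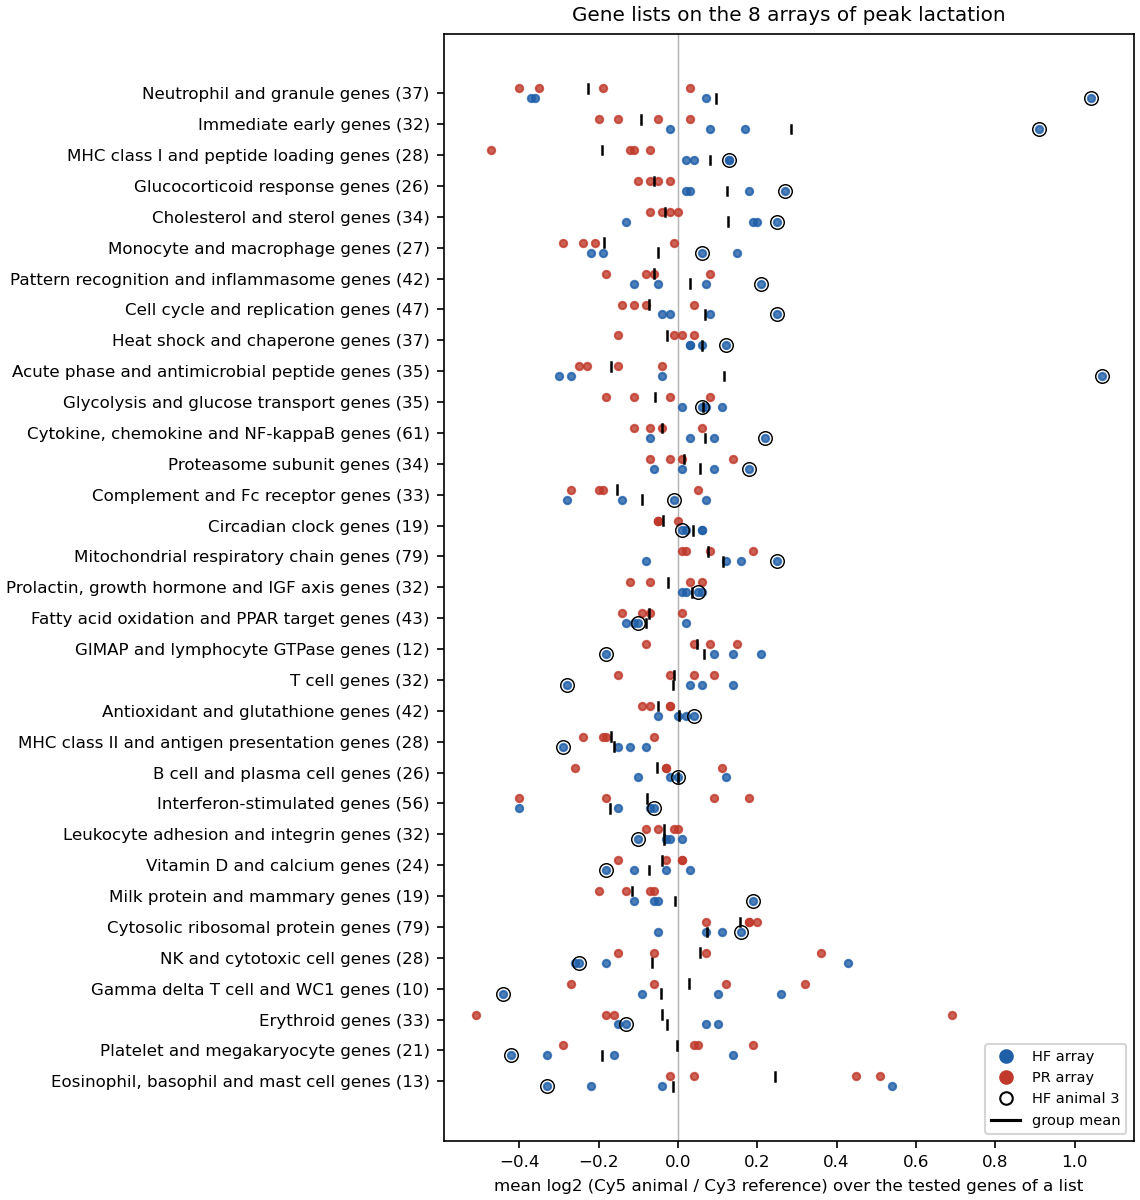
Mean log2 ratio to the reference over the tested genes of each of 33 lists (x axis) on each HF (blue) and PR (red) array of peak lactation, with group means as black bars, lists ordered by their median difference and their number of genes in brackets. HF cow 3 (ringed) stands at 1.04, 0.91 and 1.07 in neutrophil, immediate early and acute phase genes, apart from the other arrays.

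Few genes were measured in 1 breed alone. On 25 probes, 17 of them with a gene name, the signal was well above background on all 4 HF arrays and on no PR array, and 1 probe, of the pigment gene SLC24A5, showed the reverse. The Cy5 differences, with dim signals raised to the lowest signal that counts as above background, were small. They were 1.24-fold for ESPNL, 1.2-fold for ULBP17, a stress ligand of NK cells, and 1.17-fold for the peptidase MME in HF. FAM83D had 1.16-fold and DZANK1 1.15-fold in HF, and SLC24A5 1.17-fold in PR. In that order the log2 ratios to the reference differed by 0.17, 0.23, 0.28, 0.23, 0.14 and -0.08. The folds are therefore no lower bounds of those ratios. The limma adjusted p of these 6 genes ran from 0.167 for FAM83D to 0.759 for SLC24A5.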

How the data were processed

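The series holds 24 two-colour Agilent bovine arrays in 6 groups of 4, and 8 of them are compared here. The deposited scanner output gives, for every spot, the mean intensity and local background in both channels, a log10 ratio from Agilent Feature Extraction, and other yes-or-no calls (above background, saturated, uneven), per the file headers. The software version is 10.7.3.1 in the submitters' processing notes but 10.10.1.1 in the file headers. The 3 lists of selected transcripts that the design text mentions were not used here.

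Mean signals were corrected by normexp (offset 50) and the log2 ratios normalized by a loess curve per array. The 1417 control spots had weight 0 and unevenly lit spots were dropped (limma 3.58.1, statmod 1.5.0, R 4.3.3, figures with matplotlib 3.10.9 in Python 3.11.15). Probes entered the test if Cy5 exceeded background clearly in 3 or more of the 4 arrays of either breed at lactation. Dry-period tests used the same rule on the dry arrays. The model had 6 group means over all 24 arrays, so that every group informs the spread. Of 43653 probes 34311 have a gene name (33810 through the RefSeq tables, 501 by the name in the files), 16582 names in all. Coordinates and probe sequences are those in the files (UMD 3.1), and exons or untranslated regions were not assigned.

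Named genes are the 15 per direction with the smallest p, since none passed, then the 2 of each list with the smallest p, then genes measured in 1 breed alone. A few genes that this rule or a later choice would name are not reported here. FOS, DUSP1, MMP9, TCN1, CXCL8, ISG15, MX1, STAT2, EIF2AK2, OAS1Y, OAS2, TAP1, BOLA, SQLE, LSS, HSPA5, HSP90B1, DNAJB9, CCNA2, PCNA, HMOX1, SOCS1, LPL, FASN, SLC25A20, CPT1B, ACSL5 and IGF2 were added after their values were seen. The comparison and the 33 lists were chosen with earlier results of these data known. The numbers 1 to 4 name different cows in each breed, and their arrays did not deviate together across breeds (r from -0.26 to 0.018), so they were not treated as pairs. The number of arrays limits the precision. The fit was tested on simulated data.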

Additional observations from a re-analysis of the deposited data

Results flagged for a closer look

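In 14 of 240 groups of 4 values, 1 cow lay far from the other 3 of its breed, and chance flags about 1 in 20 such groups. Among single genes these were OAS1X in HF cow 4 (1.3, the others from -1.14 to -0.79), HSPA13 in HF cow 2 (-0.47, others -0.10 to -0.07), CSN2 in HF cow 2 (-0.46, others -0.25 to -0.21) and CALM3, a calmodulin gene, in HF cow 3 (-0.34, others 0.15 to 0.21). In PR they were SGK3 in cow 4 (0.13, others 0.37 to 0.41), TARP, a gamma delta T cell receptor gene, in cow 3 (0.70, others -0.32 to -0.15), JUND in cow 4 (0.42, others at 0.66), FLT3, a receptor of dendritic cell precursors, in cow 3 (-0.41, others -0.24 to -0.21) and ELANE in cow 1 (1.47, others 0.24 to 0.42). Among list means they were NK and cytotoxic genes in HF cow 2 (0.43, others -0.26 to -0.18), cholesterol genes in HF cow 2 (-0.13, others 0.19 to 0.25), MHC class I genes in PR cow 2 (-0.47, others -0.12 to -0.07), ribosomal genes in PR cow 1 (0.07, others 0.18 to 0.20) and circadian clock genes in PR cow 1 (0, others at -0.05). The array of HF cow 2 was one of those with a low spike-in correlation (0.174). Its part in these values was not tested.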

How the results depend on the processing

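The number of probes called was 0 in either direction over 24 arrays and moved with the arrays in the fit and with the processing. It was 154 (HF higher) and 95 (PR higher) with the 8 lactation arrays alone, 243 and 188 without PR dry replicate 1, 577 and 565 with array weights, whose estimation stopped early with a weight of 28.1 on 1 deer array, 140 and 137 without background correction, 15 and 13 with the processed signals of Feature Extraction, and 1035 and 748 with scale normalization. The methods' test, analysis of variance with Tukey's comparison, gave 472 and 488 without adjustment, 465 and 478 with the analysis of variance adjusted, and 0 and 0 with Tukey's p adjusted by Benjamini-Hochberg. Leaving out 1 lactation replicate gave 0 to 9 (HF higher) and 0 to 8 (PR higher). With the animal as a random replicate block it was 0 and 1, with the subject number as a replicate block over the 8 lactation arrays 0 and 0, and with slide as a random or fixed block, array position, median centring, Aquantile, Cy5 alone, either other probe filter or a variance trend 0 and 0. Cy3 alone, which holds none of the cows' RNA, also gave 0 and 0. The cause of these moves was not tested. Signs reversed with slide as a fixed block for CEP192 (-0.11), CISH (-0.16), DOCK8 (0.16), CD1A (0.12), CSN2 (0.21), NDUFS1 (-0.029), SDHD (-0.15), ITGB3 (0.18), PSMD8 (0.013), CD4 (0.15) and CALM3 (0.15). They reversed without HF lactation arrays 2 and 3 for ORM1 (-0.069) and, in an alternative added after the data were seen, also without PR lactation arrays 1 and 2 for CCR3 (0.011), DOCK8 (0.034) and ITGB3 (0.071). Of 2351 values of single genes 203 passed the threshold under an alternative, and 61 of 957 list medians moved by more than the spread between cows.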

Other observations

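In 7 genes the same cow stood apart from the other 7 by over 1.5 on the log2 scale in both states, out of 41 genes with such a gap at lactation. In all 7 of the genes with a gap in both states it was the same animal in the same direction. Both arrays of HF cow 3, the animal of 4 of these genes, shared a slide and had low spike-in correlations (0.294 and 0.401), and the part of this in its values was not tested. BOLA-DQA3, an MHC class II alpha chain gene, was at 3.40 and 3.46 in PR cow 3 at lactation and in the dry period, and from -4.21 to -3.74 and from -4.51 to -1.11 in the other cows. IFI47, an interferon-inducible GTPase, was low in the same cow at -2.97 and -2.71, against -0.76 to 0.37 and -0.85 to 0.79. LYZ2, a lysozyme gene of a family with several copies, was at -4.64 and -5.44 in PR cow 2, against -1.06 to 0.44 and -1.69 to -0.05. In HF cow 3 the tropomyosin TPM1 was at 2.85 and 2.73 (others up to 0.83 and 0.42), SAMD9, an antiviral restriction factor, at -2.50 and -3.20 (others from -0.80 and -1.05), and VMP1, of autophagy, at 1.24 and 0.63. Between breeds none of these 7 was called, with limma adjusted p-values from 0.308 for VMP1 to 0.908 for IFI47. They were chosen after their values were seen.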
